A study of Mus musculus with 8 samples.

Results

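Histone acetyltransferases are the enzymes that move the acetyl group of acetyl-CoA onto lysines of histones. Acetylation loosens the contact of histone tails with DNA and makes binding sites for bromodomain proteins, and histone deacetylases take the mark off again. In Th17 cells, the CD4+ T cells that make IL-17, acetylated histones mark the active Il17a and Il17f genes, and the series concerns a SUMOylation site of ROR-γt, the transcription factor that defines these cells, which the study links to the deacetylase HDAC2. The question put to the data here was whether the transcripts of the opposing enzymes, the acetyltransferases, differed with that site. The 10 genes described, of 22829 listed, were chosen by symbol: Kat2a, Kat2b, Ep300, Crebbp, Kat5, Kat6a, Kat6b, Kat7, Kat8 and Hat1. All 10 were listed once each and all passed the filter on low values.

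By the sample labels and the study's methods, all 8 samples were Th17 cultures of CD4+ T cells from spleens of ROR-γt-/- mice, which lack endogenous ROR-γt. In 4 samples the cells had been given WT-ROR-γt by lentivirus, and in the other 4 they had been given K187R-ROR-γt, in which the lysine that receives SUMO is an arginine. In that account every culture carried the deletion and a vector, and no culture with the deletion alone was among the samples. The design text of the series instead names mice, 4 WT and 4 mutant, and the sources used here do not settle which holds. The labels do not say whether the samples were separate animals or cultures, so p-values measure only the spread between these samples, part of which may be technical. The Xist values given below show that the samples were not all drawn from 1 pool of cells. Ages are not given in the sources used here.

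In outline, no histone acetyltransferase differed between WT and K187R cells beyond the spread between samples. All of them but Hat1 varied less than most genes tested, in a comparison not matched for level. Hat1 was lowest in the replicate 4 sample of each group, as were Kat6a, Kat7 and most of the proliferation genes measured. In both those samples Kat5 and Kat8 were instead the highest of their group. The share of all genes with either pattern was not counted. The enzymes also differed among themselves in level, and the promoters of some of them shared a motif.

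The 10 enzymes belong to 4 families that differ in their partners and targets. Kat2a (GCN5) and Kat2b (PCAF) are the catalytic subunits of the SAGA and ATAC coactivator complexes and acetylate histone H3. Ep300 (p300) and Crebbp (CBP) are large coactivators that are recruited by many transcription factors and acetylate enhancers. Kat5 (TIP60), Kat6a (MOZ), Kat6b (MORF), Kat7 (HBO1) and Kat8 (MOF) share the MYST domain and work in separate complexes. Hat1 acetylates newly made histone H4 before it is deposited on replicating DNA.

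The promoters of these genes were searched for 8 motifs common at start sites, among them the E2F type found at many replication genes. RefSeq promoter windows of 300 bases, 250 before and 50 after the start (build GRCm38.p6), matched 9 of the 10 genes, and Kat6a was not matched. All motifs were searched on both strands. Some genes had several windows, and a gene was counted if any of them held the motif. The ETS motif CCGGAAGT was found in this way in 4 of the 9, which were Hat1, Kat8, Kat7 and Kat5. Kat8 and Kat5 each also had another window without it, and the positions below are from the start whose window held it. The share among all 27025 genes with a window was 4.31%, and among the 10827 genes that were both tested and matched it was 8.84%. The stretches from 60 bases before to 30 bases after the start are shown for these 4 genes, 5′ to 3′ on the gene's strand, with the motif in capitals, because its place relative to the start differed among them.
Hat1, chr2:71389200-71389289, plus strand: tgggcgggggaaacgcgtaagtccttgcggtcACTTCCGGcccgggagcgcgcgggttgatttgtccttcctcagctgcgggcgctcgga
Kat8, chr7:127912457-127912546, plus strand: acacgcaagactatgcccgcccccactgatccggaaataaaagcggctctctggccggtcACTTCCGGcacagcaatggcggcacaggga
Kat7, chr11:95310217-95310306, minus strand: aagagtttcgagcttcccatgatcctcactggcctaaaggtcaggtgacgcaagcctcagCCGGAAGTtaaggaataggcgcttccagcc
Kat5, chr19:5610065-5610154, minus strand: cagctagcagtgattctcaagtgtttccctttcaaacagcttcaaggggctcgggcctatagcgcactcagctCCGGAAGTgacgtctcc

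In Hat1 the motif began 28 bases before the annotated start, on the opposite strand. In Kat8 and Kat7 it began at base 1 of the transcript, on the opposite strand in Kat8 and on the gene's own strand in Kat7. In Kat5 it began at base 14, and a second copy began at base 39, past the stretch shown. The Kat7 stretch also holds AGGTCA, a core that ROR proteins bind, 23 bases before the start. AGGTCA was in the windows of 2 of the 9 genes, Kat7 and Kat8, against 15.1% of the tested and matched genes. The GC box core GGGCGG was in 6 of 9 (66.1% of the tested and matched genes) and CCAAT in 5 of 9 (42.8%). TATAAA (8.88%), the palindromic NRF1 motif (2.23%), the cAMP response element TGACGTCA (3.45%) and the E2F-type letters TTTGGCGC, TTTCGCGC, TTCCCGCC and TTGGCGGG (7.84%) were in none of the 9. These are matches of letters, with no measurement of binding behind them.

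The deposited value of a gene is its reads divided by a size factor of the sample, called a normalized count here. A difference is the mean of log2(normalized count + 1) in K187R minus that in WT, with its SE and 95% interval from a limma fit of all 16982 genes with a mean of at least 10, and adjusted p-values are Benjamini-Hochberg over those genes. Reads per sample were between 52456804 and 74676721, so the members, at 1807 normalized counts or more in every sample, had a small counting error. In a culture measured in bulk, fewer cells of a type and less transcript per cell cannot be told apart.

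The samples did not sort by ROR-γt form. Clustering on genes outside the lists used here gave 3 sets, of which the first held WT replicates 1 and 3 and K187R replicate 1, the second WT replicate 2 and K187R replicates 2 and 3, and the third both replicates numbered 4. The first 2 principal components, over 16846 genes, held 42.7% and 29.1% of the variance and separated these sets. The second set, which was split unevenly between the groups, stood apart in Xist, at 13564 to 17373 normalized counts against 3.56 to 23.7 in the other samples. Its NK cell markers also summed to more, at 370 to 435 against 40.7 to 64.0. CD4 T cell markers summed to 145806 to 170163 normalized counts in the samples and none was at 0. The lists of CD8 T, B and myeloid markers had no gene at 0 either, so detection alone does not show how pure the cultures were. Myeloid markers summed to 20336 to 61225 in WT and 35204 to 64257 in K187R samples, with all 5 of 5 detected. All 5 had a difference (K187R minus WT) above 0, with a median of 0.46 and none called. The lowest sums were those of WT replicates 1 and 3, at 20336 and 20599. Differences within the sample sets, or from a fit with the sample set in the model, are given below for some genes. Every set held only 1 sample of at least 1 of the groups, so a difference within a set carries no measure of spread. The part of the myeloid transcripts in the differences was not tested.

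As a check on the cell type, Il17a, the gene of the main Th17 cytokine, was at 2861, 4653, 2676 and 2087 normalized counts in WT and at 4696, 6075, 5771 and 3528 in K187R cells, a difference of 0.74 ± 0.246 (SE, n = 4 per group; limma, unadjusted p = 0.0141, adjusted p = 0.921). Il17f, its neighbour, differed by 0.55 ± 0.217 (unadjusted p = 0.0316). Neither passed the threshold after adjustment, and no gene did: 0% of the genes tested were called, while 4.39% had an unadjusted p under 0.05.

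None of the 10 acetyltransferases was called, none had an unadjusted p under 0.05, and in none were the WT and K187R samples separate, which held for 2.46% of all genes tested. The differences ranged from -0.17 to 0.14, 3 above and 7 below 0, with a median of -0.020 against -0.0062 over all genes tested. DESeq2 on the recovered reads called 0.193% of the genes it gave an adjusted p, and no acetyltransferase among them.

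**Figure D1:**
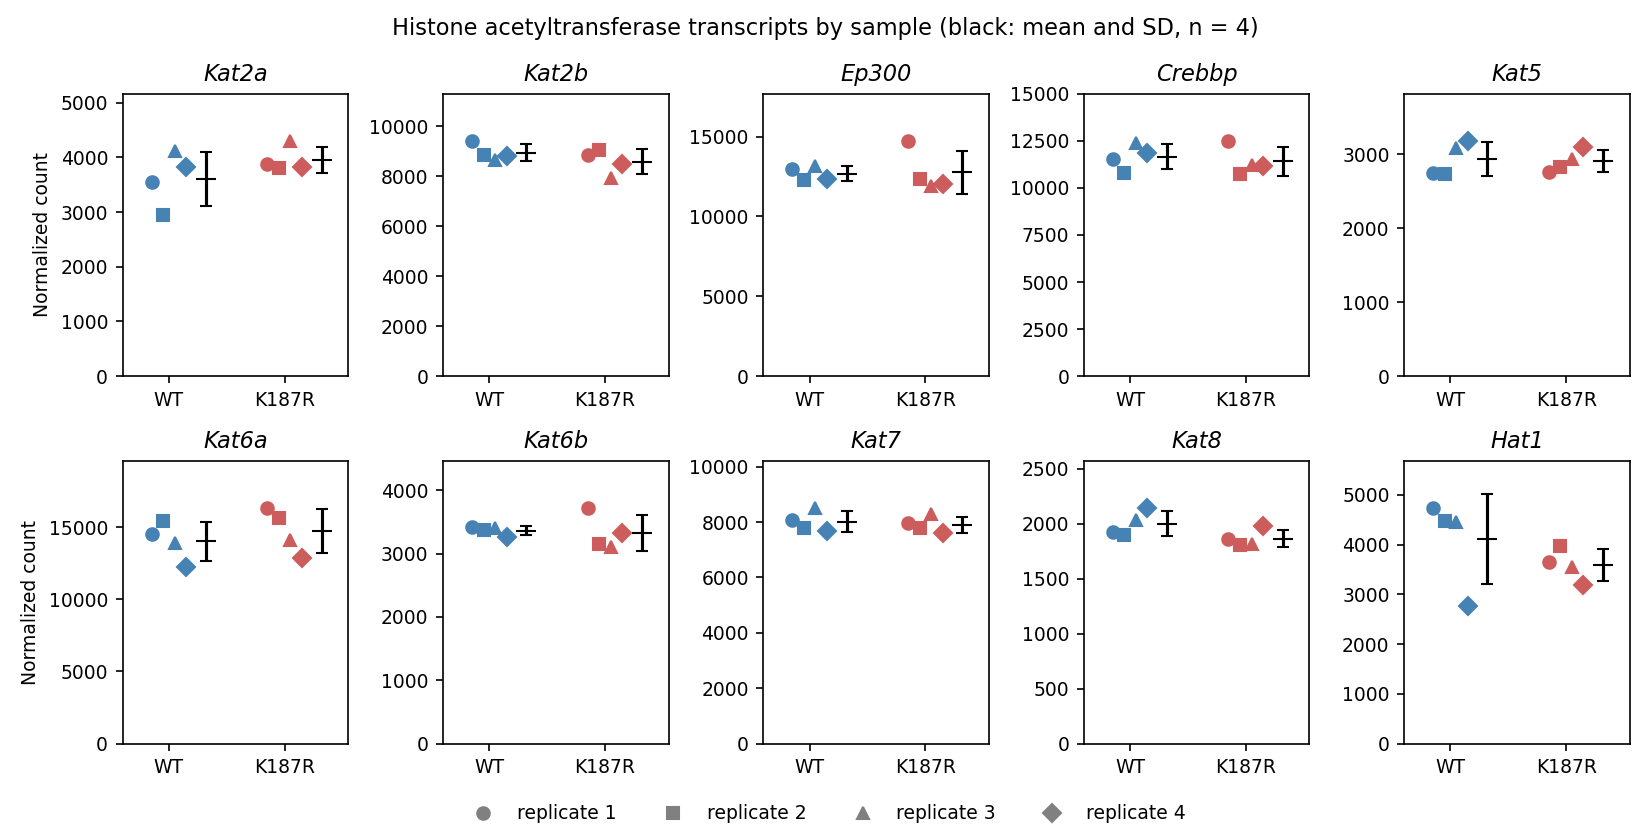
Normalized count of each histone acetyltransferase gene in 4 WT (blue) and 4 K187R (red) samples, with the replicate number as the marker's shape; the black line and bar are the mean and SD of each group, and each panel's axis starts at 0. WT and K187R samples overlap in all 10 panels, and Hat1 in WT replicate 4, at 2770, lies below the other 3 WT samples.

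**Figure D2:**
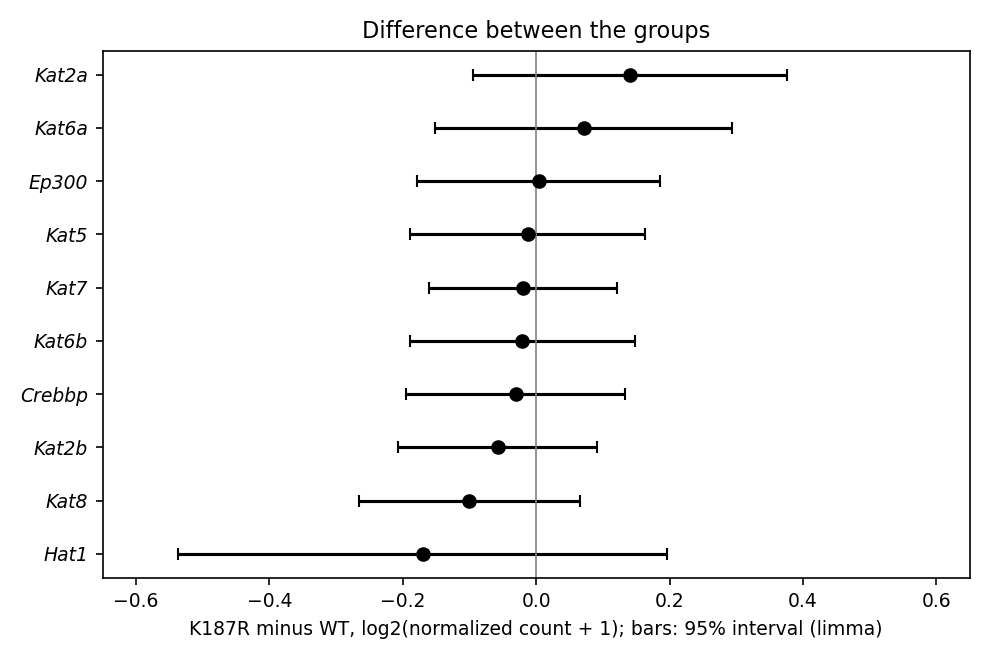
Difference of each gene between K187R and WT cells in log2(normalized count + 1), with its 95% interval from limma (4 samples per group). All 10 intervals include 0, and the widest is that of Hat1, from -0.54 to 0.20.

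Kat2a, on chr11:100704746-100712465, is the GCN5 enzyme of SAGA and ATAC. Its transcript was at 3552, 2953, 4109 and 3825 normalized counts in WT cells and at 3883, 3812, 4306 and 3824 in K187R cells. The lowest value was WT replicate 2 and the highest K187R replicate 3, and the other 6 samples lay between them with the groups mixed. The means were 3610 ± 493 and 3956 ± 235 (SD, n = 4), a 1.10-fold level with a 95% interval of 0.937 to 1.30 (limma, adjusted p = 0.921). Without WT replicate 2 the difference went from 0.14 to 0.048. Within the second sample set, which holds that sample, it was 0.46, and in the first and the third sets it was 0.023 and -0.00024.

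Kat2b, on chr17:53566861-53672720, encodes PCAF, the paralog that takes the place of GCN5 in the same complexes. It was at 9431, 8845, 8644 and 8832 normalized counts in WT cells and at 8853, 9060, 7951 and 8503 in K187R cells. K187R replicate 3 was lowest and WT replicate 1 highest, with the rest overlapping. The fold was 0.961 (95% interval 0.867 to 1.06; adjusted p = 0.925), and the difference was below 0 in all 3 sample sets, at -0.028, -0.060 and -0.055. The ratio of Kat2b to Kat2a per length of merged exons was 1.66 over the 8 samples, from 1.32 in K187R replicate 3 to 2.14 in WT replicate 2, the samples where Kat2a was highest and lowest. Kat2b was the more abundant of the pair in all 8 samples.

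The 24 measured partners of this pair in SAGA and ATAC were divided evenly, 13 above and 11 below 0, with a median difference of 0.0086, none called and none with an unadjusted p under 0.05. Atxn7, which anchors the deubiquitinase module of SAGA, had the smallest p of those below 0 (-0.14 ± 0.0673 SE; unadjusted p = 0.0695). WT samples had 5685, 5402, 5232 and 5324 normalized counts of it and K187R samples 4745, 5361, 4824 and 4757, so that K187R replicate 2 lay among the WT samples. Taf9b, a histone-fold subunit, had the smallest p of those above 0, with a difference of 0.16 ± 0.101.

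Ep300, on chr15:81585351-81652077, encodes p300. It was at 12958, 12288, 13162 and 12332 normalized counts in WT cells and at 14746, 12343, 11906 and 12045 in K187R cells. K187R replicate 1 was high, and the other 3 K187R samples were at or below the middle of the WT range. The means were 12685 ± 441 and 12760 ± 1336 (SD, n = 4), a difference of 0.0036 (95% interval in fold 0.884 to 1.14; adjusted p = 0.997). Without K187R replicate 1 the difference was -0.068.

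Crebbp, on chr16:4081328-4213997, encodes CBP, the paralog of p300. It was at 11526, 10801, 12392 and 11877 normalized counts in WT cells and at 12509, 10743, 11208 and 11171 in K187R cells. As for Ep300, K187R replicate 1 was the highest sample and the others lay within or just under the WT range. The fold was 0.979 (95% interval 0.874 to 1.10; adjusted p = 0.962). The pair was present in near equal amounts per length of merged exons, with a ratio of Ep300 to Crebbp of 1.05, between 0.985 and 1.12 in single samples. With the longest transcript as the length that ratio was 1.25.

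All 6 measured coactivators that bind p300 and CBP had differences above 0, with a median of 0.042, and none was called. Cited4, which binds the CH1 domain of both proteins, had the smallest unadjusted p of them, 0.0358, with a difference of 0.91 ± 0.372 (SE; adjusted p = 0.921). It was a scarce transcript, at 10.7, 16.3, 12.7 and 27.0 normalized counts in WT cells and at 22.6, 20.6, 45.3 and 40.0 in K187R cells. WT replicate 4 lay above 2 of the K187R samples, so the groups overlapped.

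Kat5, on chr19:5603014-5610237, encodes TIP60, which acetylates histone H4 and the variant H2A and takes part in the DNA damage response. It was at 2752, 2737, 3085 and 3184 normalized counts in WT cells and at 2765, 2834, 2942 and 3098 in K187R cells. The K187R samples lay inside the WT range, and both replicates 4 were the highest of their group. The fold was 0.991 (95% interval 0.877 to 1.12; adjusted p = 0.986). Exons of Rnaseh2c on the opposite strand cover 12.1% of its exonic bases, and the counting is not stated to use strand. Of its 17 partners in the TIP60 complex, 14 had differences below 0 and 3 above, with a median of -0.042, none called and none with an unadjusted p under 0.05. Brd8, the bromodomain subunit, had the smallest p of those below 0 (-0.12 ± 0.0693) and the helicase Ep400 that of those above 0 (0.027 ± 0.105).

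Kat6a, on chr8:22859535-22943259, encodes MOZ, an acetyltransferase of histone H3. It was at 14543, 15407, 13875 and 12213 normalized counts in WT cells and at 16320, 15611, 14132 and 12848 in K187R cells. The replicate 4 samples were the lowest of each group, and the other values overlapped. The fold was 1.05 (95% interval 0.900 to 1.23; adjusted p = 0.933).

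Kat6b, on chr14:21481434-21672478, encodes the paralog MORF. It was at 3421, 3369, 3408 and 3259 normalized counts in WT cells and at 3718, 3153, 3104 and 3323 in K187R cells. The 4 WT samples were close together, with an SD of 73.6, and of the K187R samples 1 lay above them, 2 below and 1 among them, with an SD of 278. The fold was 0.986 (95% interval 0.877 to 1.11; adjusted p = 0.977). Per length of merged exons, Kat6a was 7.85 times as abundant as Kat6b, with a range of 6.87 to 9.07 over the samples. With the longest transcript as the length that ratio was 3.62, above 1 all the same. It was smaller because the merged exons of Kat6b, at 16826 bases, are far longer than its longest transcript of 7699 bases.

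Kat7, on chr11:95274259-95310246, encodes HBO1, which acetylates histones H3 and H4 and was first found through the replication origin recognition complex. It was at 8085, 7798, 8503 and 7675 normalized counts in WT cells and at 7948, 7771, 8274 and 7611 in K187R cells. Its values spanned 1.12-fold from lowest to highest, the narrowest span of the 10 members, and only 1.40% of the genes tested had a smaller SD of log2 values. The fold was 0.986 (95% interval 0.894 to 1.09; adjusted p = 0.970).

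The 9 scaffolds and readers that carry Kat6a, Kat6b and Kat7 had differences on both sides of 0, 4 above and 5 below, with a median of -0.013 and none called. Brpf3, a scaffold that pairs with Kat7, was at 4665, 4467, 5179 and 5367 normalized counts in WT cells and at 3853, 3790, 4423 and 4206 in K187R cells. All 4 K187R samples lay below all 4 WT samples. A separation of the groups, in either direction, held for 1 of the 91 partner genes measured, against 2.46% of all genes tested. The difference of Brpf3 was -0.27 ± 0.0854 (SE, n = 4 per group; unadjusted p = 0.0103, adjusted p = 0.921). Exons on the opposite strand cover 4.52% of its exonic bases. Jade2, another scaffold of Kat7, differed the other way, by 0.34 ± 0.123 (unadjusted p = 0.0206, adjusted p = 0.921). It was at 3947, 5238, 4309 and 4672 normalized counts in WT and at 5402, 6174, 6734 and 4791 in K187R cells, where K187R replicate 4 lay below WT replicate 2. With Cited4, these were 3 of 91 partner genes with an unadjusted p under 0.05, against 4.39% of all genes tested.

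Kat8, on chr7:127912516-127925837, encodes MOF, which acetylates lysine 16 of histone H4 within the MSL and NSL complexes. It was at 1929, 1896, 2036 and 2142 normalized counts in WT cells and at 1863, 1807, 1812 and 1979 in K187R cells. The 3 lowest samples were K187R and the highest 2 were WT, but K187R replicate 4 lay above 2 of the WT samples. Both replicates 4 were the highest of their group. The fold was 0.933 (95% interval 0.832 to 1.05), with the smallest unadjusted p of the 10 members, 0.206 (limma, adjusted p = 0.921). The difference was below 0 in all 3 sample sets, at -0.089, -0.067 and -0.11. Apart from Kat2b and Kat8, the members took both signs across the sets. Exons of Prss8 on the opposite strand cover 4.22% of its exonic bases. Its 11 partners in MSL and NSL had 6 differences above and 5 below 0, with a median of 0.0054 and the widest being that of Hcfc1, at 0.089 ± 0.0865, while Kansl3 had the smallest p of those below 0 (-0.080 ± 0.0704).

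Hat1, on chr2:71388958-71441622, varied most. It was at 4734, 4477, 4455 and 2770 normalized counts in WT cells and at 3643, 3972, 3543 and 3183 in K187R cells. Replicate 4 was the lowest sample of each group, and the other 3 WT samples lay above every K187R sample. The means were 4109 ± 902 and 3585 ± 325 (SD, n = 4), a 0.889-fold level (95% interval 0.689 to 1.15; unadjusted p = 0.323, adjusted p = 0.923). Highest and lowest sample differed 1.71-fold, and 58.8% of the genes tested had a smaller SD of log2 values.

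The difference in Hat1 depended on WT replicate 4. Without that sample it was -0.35 (unadjusted p = 0.00292, adjusted p = 0.262), when 12.9% of the genes tested had an unadjusted p under 0.05 and Hat1 alone of the 10 members was among them. Within the sample sets it was -0.33 and -0.26 in the first and second, and 0.20 in the third, which consists of the replicates 4.

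Most of the 12 proliferation genes measured were, like Hat1, lowest in the replicate 4 sample of each group. Of the 12 proliferation genes, WT replicate 4 was the lowest WT sample in 12 and K187R replicate 4 the lowest K187R sample in 11, and 11 had a difference below 0, with a median of -0.21 and none called. Their mean log2 level was 13.07, 12.65, 13.07 and 12.07 in WT replicates 1 to 4 and 12.62, 12.63, 12.60 and 12.19 in K187R replicates 1 to 4. In WT replicate 2 Hat1 was 0.24 above its mean of the 8 samples in log2, while the proliferation genes were on average 0.03 above theirs. The 8 partners of Hat1 and chaperones of histones H3 and H4, which carry new histones to DNA, were all below 0, with a median of -0.13 and none called. WT replicate 4 was the lowest WT sample in 7 of these 8, and K187R replicate 4 the lowest K187R sample in 5. Rbbp4, the histone-binding subunit that works with Hat1, had the smallest p of them, with a difference of -0.17 ± 0.101 (unadjusted p = 0.130). Exons on the opposite strand cover 18.05% of the exonic bases of Rbbp4. Markers of other cell types also set the replicate 4 samples apart. CD8 T cell markers summed to 1025 normalized counts in WT replicate 4 and 1141 in K187R replicate 4, against 387 to 556 in the other samples, and B cell markers to 262 and 310 against 822 to 1253. Myeloid markers were highest in both, at 61225 and 64257 against 20336 to 49069, and erythroid markers were at 56.6 and 76.5 against 1.69 to 11.6. The parts of cell division and of other cell types in the Hat1 values were not tested.

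The 3 genes whose profiles over the 8 samples were most like that of Hat1 were Ska2, a protein of the spindle and kinetochore, Slbp, which binds the stem-loop of histone mRNAs in S phase, and Dut, the dUTPase that keeps uracil out of DNA. Their centred log2 values differed from those of Hat1 by a root mean square of 0.052, 0.055 and 0.057, where the median of all genes tested was 0.334 and the first percentile 0.110. Ska2 was at 1527, 1376, 1533 and 889.7 normalized counts in WT and at 1129, 1258, 1094 and 977.1 in K187R cells, and its low values in both replicates 4 follow from how it was chosen. Kat2a, the member with the second largest spread, was followed most closely by the kinase Map4k1 and by Ubap2 and Usp36, at a root mean square of 0.0458 to 0.0464, where the median was 0.261 and the first percentile 0.0921.

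**Figure D3:**
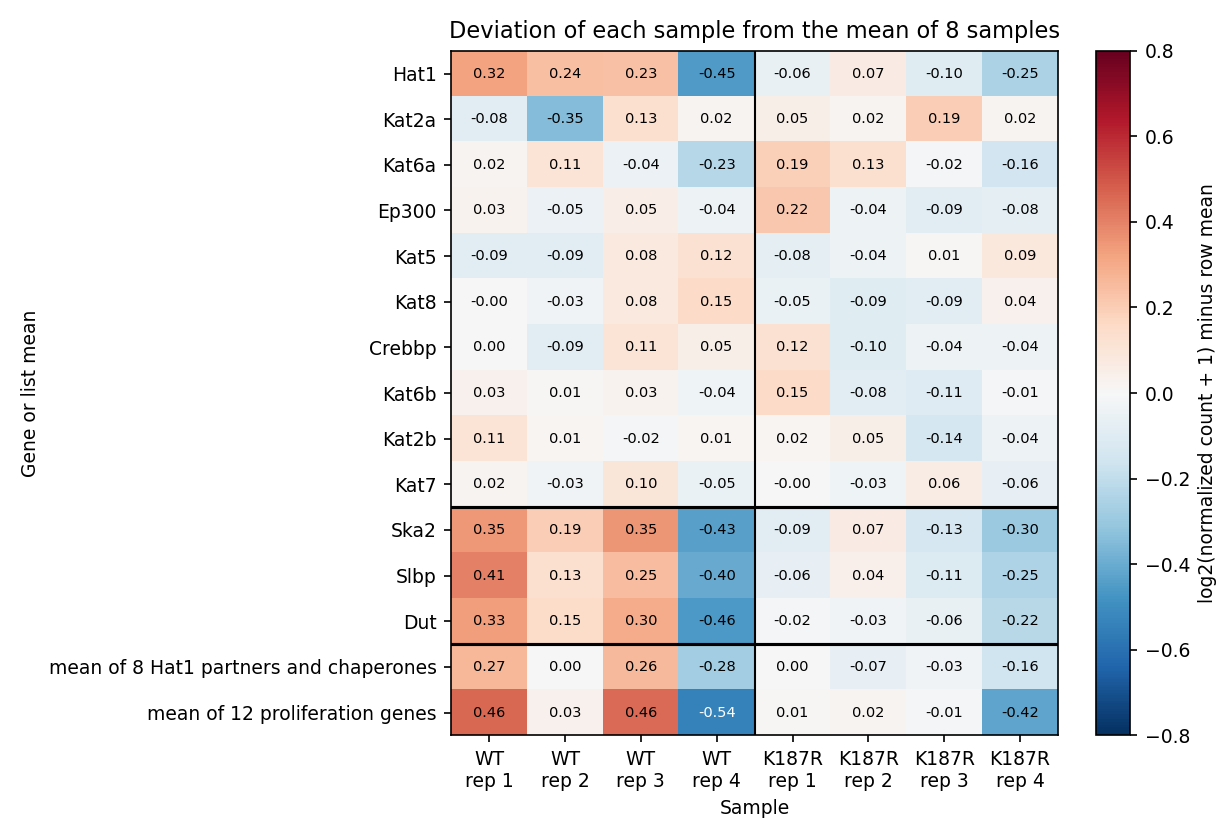
Log2(normalized count + 1) of each gene or list mean minus its mean over the 8 samples, with WT replicates at the left and K187R replicates at the right; rows are the 10 histone acetyltransferases from the largest to the smallest SD, the 3 genes nearest to Hat1, and the means of 2 gene lists. Hat1 is at -0.45 in WT replicate 4 and -0.25 in K187R replicate 4, and Ska2, Slbp and Dut were chosen for their likeness to it, while Kat7 stays within 0.10 of its mean.

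The other 9 members varied less than most genes. Their SD of log2 values over the 8 samples was between 0.0557 for Kat7 and 0.163 for Kat2a, and the median over the 10 members was 0.086 against 0.221 over all genes tested. Abundant transcripts have less counting error, and this comparison was not matched for level. For 7 of them, Kat7, Kat2b, Kat6b, Crebbp, Kat8, Kat5 and Ep300 in rising order, between 1.40% and 11.3% of the genes tested had a smaller SD. For Kat6a and Kat2a the shares were 26.6% and 33.9%. The 4 members with the longest merged exons, Kat6b, Ep300, Crebbp and Kat6a, at 9180 to 16826 bases, all had their highest value in K187R replicate 1, a pattern noticed after the values were seen. Without that sample the median difference of the 10 members went from -0.020 to -0.070, and it was 0.0040 without WT replicate 3.

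Levels can be set between genes only per length. Normalized counts per kilobase of merged exons, as the mean ± SD of the 8 samples, put Kat2b highest at 1801 ± 88.4, followed by Kat6a at 1565 ± 153, Kat7 at 1437.5 ± 56.1 and Hat1 at 1333 ± 238. Kat2a, at 1087 ± 116, was in the middle. Ep300 followed at 891 ± 64.6, Crebbp at 851 ± 49.97 and Kat5 at 833 ± 50.7, and the order ended with Kat8 at 669 ± 39.9 and Kat6b at 199 ± 11.3. The ranges of neighbours in this order overlapped, except those of Kat5 and Kat8 and of Kat8 and Kat6b. Within single samples, Kat2b was above Kat6a, Kat5 above Kat8 and Kat8 above Kat6b in 8 of 8. Crebbp and Kat5 were in that order in 4 of 8 samples, so the pair could not be ranked. With the longest transcript as the length, the order became Kat7, Hat1, Kat2b, Kat6a, Ep300, Kat5, Kat8, Kat2a, Crebbp and Kat6b, so that only the last place was held under both lengths.

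**Figure D4:**
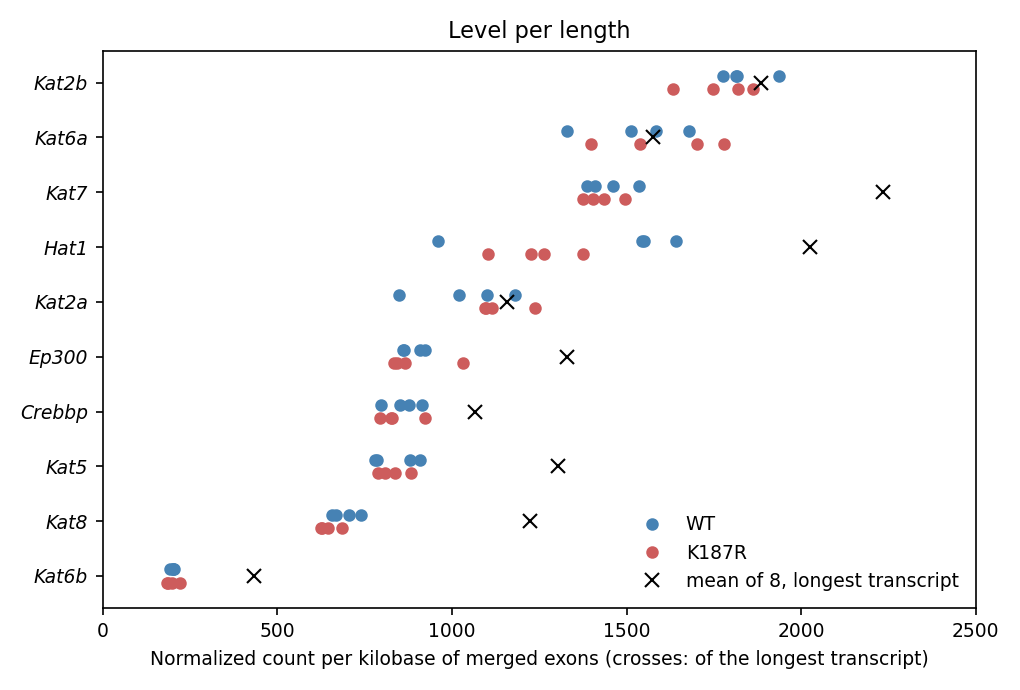
Normalized count per kilobase of merged exons for each histone acetyltransferase in 4 WT (blue) and 4 K187R (red) samples, with crosses for the mean of 8 samples per kilobase of the longest transcript. Kat2b is highest and Kat6b lowest per merged exons, at means of 1801 and 199, and Kat7 moves to the first place with the longest transcript, at 2235.

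The enzymes and readers around acetylation showed no called gene either. The 11 histone deacetylases had 4 differences above and 7 below 0, with a median of -0.032. Hdac2, the deacetylase that the study links to ROR-γt, was at 7715, 7155, 7169 and 5789 normalized counts in WT and at 6797, 6739, 6174 and 6579 in K187R cells. Its difference was -0.075 ± 0.0927 (SE; unadjusted p = 0.438), with -0.16 without WT replicate 4, the lowest WT sample, and -0.023 without WT replicate 1. Hdac1 differed by -0.082 ± 0.0888, and Hdac3 by -0.10 ± 0.0984. Hdac11, a scarce transcript, differed by 0.33 ± 0.217, and exons on the opposite strand cover 17.9% of its exonic bases. The deacetylases and the acetyltransferases thus both had medians within 0.05 of 0 in log2.

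Of the 4 genes that supply acetyl-CoA, the substrate of all these enzymes, 3 had differences above 0, with a median of 0.089. Acss2, which makes acetyl-CoA from acetate, was at 1168, 1471, 1176 and 1836 normalized counts in WT and at 1681, 1645, 1699 and 1802 in K187R cells. The K187R samples were close together and 3 of the 4 WT samples lay below all of them, while WT replicate 4 lay above all (0.30 ± 0.142 SE; unadjusted p = 0.0637, adjusted p = 0.921). Exons of neighbouring genes on the opposite strand cover 9.12% of the exonic bases of Acss2. Acly, which makes acetyl-CoA from citrate, differed by -0.0093 ± 0.0746. The 3 BET proteins, readers of acetylated histones, lay within 0.05 of 0, with Brd2 at 0.039 ± 0.0636 and Brd3 at -0.047 ± 0.0649. For Brd2, 9.8% of the exonic bases are covered by exons on the opposite strand.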

How the data were processed

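RNA seq was analysed in 4 WT-ROR-γt and 4 K187R-ROR-γt samples, grouped by their labels. The authors trimmed reads with Cutadapt, aligned them to GRCm38 with HiSat2, counted them on GENCODE M15 genes with featureCounts and normalized them with DESeq2; strand setting and versions are not given in the sources used here. The labels name a TruSeq kit and the methods a KAPA poly-A kit. The deposited values are a signal, reads divided by a size factor. All (100%) were whole reads within a tolerance of 0.01 of a read, and 3 reads correspond to 2.54 to 3.56 normalized counts. This covers counting error only.

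Because these are not counts, limma (lmFit, eBayes with a trend) on log2(normalized count + 1) was the main test, with a mean of at least 10, an adjusted p-value threshold of 0.05 and no replicate block. Recovered reads went into edgeR and DESeq2 as alternatives. Other alternatives used a pseudocount of 0.5 or 5, a filter at a mean of 50 or none, quantile and TMM scaling, no trend, the replicate number or the sample set in the model, each sample left out, and the longest transcript as length. The fits were tested on simulated data. Sample sets came from clustering the samples on genes outside the lists. Lengths and positions are of GENCODE M21 on GRCm38, and promoters of RefSeq.

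The members and gene lists were chosen with earlier results of these data known. Named genes are the members, the gene with the smallest p in each direction of each list, Hdac1, Hdac2, Il17a, Il17f and Xist, and the 3 genes nearest in profile to each of the 2 members with the largest SD. The lists' symbols Ccdc101, Supt3h and Csrp2bp were absent, as older names of listed genes. Python was version 3.11.15 (matplotlib 3.10.9, pandas 2.3.3, numpy 2.4.6), and R was 4.3.3, with DESeq2 1.42.0, limma 3.58.1 and edgeR 4.0.16. Real-time PCR, ELISA, ChIP and animal data were not analysed here, and 1 named gene is not reported here.

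Other marker lists, summed over normalized counts, were CD8 T (387 to 1141 over the samples), B (262 to 1253), NK (40.7 to 435) and erythroid (1.69 to 76.5, 3 of 4 genes measured).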

Additional observations from a re-analysis of the deposited data

Results flagged for a closer look

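In groups of 4, a sample was marked where its gap to the nearest other sample was above Dixon's 95% critical value as a share of the group's range. Of 76 groups of named genes 6 were marked, where chance gives 3.8, and 3 of these were among the 20 groups of the histone acetyltransferases.

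Hat1 in WT replicate 4, at 2770 normalized counts, was far below the other 3 WT samples, at 4455 to 4734. Kat2a in K187R replicate 3, at 4306, was above the other K187R samples, at 3812 to 3883. Ep300 in K187R replicate 1, at 14746, was above the others, at 11906 to 12343.

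Among the genes around them, Atxn7 in K187R replicate 2 was at 5361 against 4745 to 4824, and Hdac11 in WT replicate 1 was at 41.6 against 51.9 to 52.4. Xist in WT replicate 2 was at 17290 against 10.1 to 21.4 in the other WT samples.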

How the results depend on the processing

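No histone acetyltransferase and none of the 91 partner genes was called under any of the 20 alternatives. Over all genes, DESeq2 called 27 (15 higher and 12 lower in K187R; 886 with an unadjusted p under 0.05), the fit with the sample set called 1 (1394), and leaving out single samples called 0 to 4. The 4, of which 3 were lower in K187R, came without WT replicate 4. With the sample set the difference of Crebbp was 0.00809, of Kat6b 0.0134 and of Xist -0.25 and the Acly difference 0.0182, and with quantile normalization that of Kat5 was 0.00621, of Kat7 0.00329 and the Acly difference 0.00657, each opposite in sign to the value given above. Differences that took both signs when single samples were left out were those of Ep300 (-0.068 to 0.035), Kat5 (-0.046 to 0.027), Kat6b (-0.076 to 0.011), Kat7 (-0.043 to 0.0085), Acly (-0.053 to 0.033), Ep400 (-0.068 to 0.096) and Ubap2 (-0.0080 to 0.13). The median difference of the histone acetyltransferases was 0.0016 with quantile normalization and -0.070 to 0.0040 without single samples. Without each sample in turn the difference of Hdac2 was -0.16 to -0.023, that of Hat1 was -0.35 to -0.092 and that of Kat2a 0.048 to 0.21. Per longest transcript, the log2 ratio was 0.32 for Ep300 to Crebbp and 1.86 for Kat6a to Kat6b, against 0.065 and 2.97 per merged exons. TMM scaling moved the samples by at most 0.0146 in log2.

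The labels number the replicates of both groups 1 to 4. Deviations of same-numbered samples from their group means correlated at 0.592, 0.663, -0.0922 and 0.630 over 16982 genes, so the numbers were not taken to pair the samples. With the replicate number as a block, limma called 0 genes, with 2046 (12%) at an unadjusted p under 0.05 against 746 without it, and edgeR called 0 (1930 at an unadjusted p under 0.05). With the block the smallest adjusted p of the histone acetyltransferases was 0.448 in limma, and it changed none of their calls. With 4 samples a group the spread between samples limits the comparisons, and for scarce genes such as Cited4 the counting error adds to it.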
